A study of Mus musculus with 12 samples.

Results

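The cell cycle genes described here are 43 named cyclin, kinase, replication and mitosis genes, 21 that act around the start of DNA replication (G1/S) and 22 that act from late replication through mitosis (G2/M), of 54532 genes listed. They were taken by symbol from a list made with earlier results of these data known, and each symbol matched 1 Ensembl identifier. All 43 passed the filter on low values that left 16733 genes for testing. RNA came from limb bud mesenchyme of E14.5 mouse embryos, in which Cre recombinase driven by Prrx1 (the labels' Prx1Cre) had opened a lox-stop-lox cassette at Rosa26. Fathers carried Prrx1-Cre, and mothers carried both cassettes, so every embryo compared had Cre and 1 of the cassettes. In the iCreb5 group the cassette expressed HA-tagged bovine Creb5, a CREB and ATF family transcription factor, with an EGFP. In the tdTomato group it expressed the fluorescent protein tdTomato, and no group without a cassette was analysed here. Cells were sorted by fluorescence, at about 250K to 500K per sample, and 6 libraries of each group were sequenced.

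In the cell cycle, D-type cyclins with Cdk4 or Cdk6, and then E-type cyclins with Cdk2, phosphorylate the Rb proteins and release E2F factors, which switch on genes for DNA replication. Cyclins A and B with Cdk1 then drive entry into mitosis, where aurora and polo kinases, kinesins and the spindle checkpoint carry out chromosome segregation. Many mitotic genes are repressed in resting cells and switched on late in the cycle through CCAAT boxes and a motif called the CHR in their promoters, whereas replication genes often carry E2F motifs. In the limb bud, mesenchymal cells divide as the limb grows and many slow their division as they differentiate.

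The promoters of Aurka, Ckap2l and Nusap1, which were higher in iCreb5 cells, and of Ccnb1, whose groups did not overlap, are shown with their CCAAT and CHR letters where they have them. The Aurkb promoter was not used here, and the Mcm6 promoter is set beside them as 1 example of a replication gene. It does not stand for all of them, since the Mcm2 promoter had CHR letters and no E2F match, and that of Pcna had neither. Each sequence runs from 250 bases before to 50 bases after an annotated start, as RefSeq gives it on GRCm38.p6, the build also called mm10. Capitals mark CCAAT, the CHR letters TTTGAA or TTTAAA, and the E2F letters TTTCCCGC, TTTGGCGC, TTTCGCGC or TTTGCCGC, on either strand.
Aurka, chr2:172370521-172370820, minus strand: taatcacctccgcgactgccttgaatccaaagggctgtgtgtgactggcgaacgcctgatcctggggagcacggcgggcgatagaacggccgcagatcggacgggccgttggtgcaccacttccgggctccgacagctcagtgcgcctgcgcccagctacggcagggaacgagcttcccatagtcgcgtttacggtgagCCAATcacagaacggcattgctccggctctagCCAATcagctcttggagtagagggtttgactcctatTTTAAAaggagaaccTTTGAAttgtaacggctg
Ckap2l, chr2:129297163-129297462, minus strand: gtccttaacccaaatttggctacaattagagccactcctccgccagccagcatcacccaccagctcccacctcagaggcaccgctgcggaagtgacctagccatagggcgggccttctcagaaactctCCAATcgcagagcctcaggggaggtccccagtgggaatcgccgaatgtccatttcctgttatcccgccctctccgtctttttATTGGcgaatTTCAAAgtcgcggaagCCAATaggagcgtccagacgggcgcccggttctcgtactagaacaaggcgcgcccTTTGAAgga
Nusap1, chr2:119618048-119618347, plus strand: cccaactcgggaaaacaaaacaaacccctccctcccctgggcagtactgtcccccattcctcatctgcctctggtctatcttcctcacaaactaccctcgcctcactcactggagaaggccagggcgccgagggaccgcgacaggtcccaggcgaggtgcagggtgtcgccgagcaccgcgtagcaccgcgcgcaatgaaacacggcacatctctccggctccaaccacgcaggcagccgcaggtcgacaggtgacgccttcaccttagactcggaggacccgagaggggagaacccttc
Ccnb1, chr13:100786437-100786736, minus strand: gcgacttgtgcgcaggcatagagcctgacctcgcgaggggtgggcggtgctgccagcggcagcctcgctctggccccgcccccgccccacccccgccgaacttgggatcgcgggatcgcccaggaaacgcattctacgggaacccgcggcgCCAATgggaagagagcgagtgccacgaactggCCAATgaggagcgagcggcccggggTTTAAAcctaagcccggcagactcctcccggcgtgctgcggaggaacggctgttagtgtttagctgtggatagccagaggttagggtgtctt
Mcm6, chr1:128359656-128359955, minus strand: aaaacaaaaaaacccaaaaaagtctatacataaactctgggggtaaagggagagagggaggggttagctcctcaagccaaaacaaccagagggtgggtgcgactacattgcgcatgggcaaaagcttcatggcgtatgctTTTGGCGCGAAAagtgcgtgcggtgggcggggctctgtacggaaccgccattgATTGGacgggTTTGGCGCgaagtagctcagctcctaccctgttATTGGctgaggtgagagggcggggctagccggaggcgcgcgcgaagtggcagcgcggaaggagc
Aurka had CCAAT at 51 and 19 bases before the start and CHR letters at 17 and 32 bases after it. Ckap2l had CCAAT at 122, 40 and 14 bases before the start, the middle one on the opposite strand, and CHR letters at 30 bases before and 41 bases after it. Ccnb1 had CCAAT at 99 and 67 bases and a CHR at 42 bases before the start. Mcm6 had no CHR letters but 3 E2F matches, of which 2 overlap on opposite strands, and CCAAT on the strand opposite to the one printed at 57 and 14 bases before the start.

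Over all members with a promoter in the table, 17 of the 22 G2/M members had 1 promoter each, and 17 of the 21 G1/S members had 20 promoters. CHR letters stood in 15 of the 17 G2/M promoters (88.2%), in 6 of the 20 G1/S promoters (30%) and in 27.6% of all 32851 promoters. CCAAT stood in 88.2%, 60% and 37.4% of the same sets. At least 2 CCAAT boxes together with a CHR were found in 52.9% of G2/M, 10% of G1/S and 3.13% of all promoters. E2F letters went the other way, with 25% of G1/S promoters, 5.88% of G2/M promoters and 2.26% of all promoters. TGACGTCA, the palindrome that CREB and ATF factors bind (its letters contain none of the others searched), was in 1 G2/M promoter, that of Cenpe, and in 1 G1/S promoter, that of Mcm5, against 1.79% of all promoters. Nusap1, which was higher in iCreb5 cells, had none of these letters in its window. These matches describe the listed windows and are no measure of binding.

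The libraries held between 9.02 and 53.3 M reads each, M standing for 1000000, with 1 read worth 0.494 to 2.79 deposited units, so each member rested on many reads in every library. The deposited values are read counts divided by a size factor per library, called normalised counts below. The labels place 3 libraries of each group in litter 3 and 1 of each group in litters 4, 5 and 6, with a separate batch label for each litter. Litter and batch therefore cannot be told apart. Creb5 itself, the check of the labels, had a mean ± SD of 2799 ± 214 over 6 iCreb5 libraries and of 1803 ± 299 over 6 tdTomato libraries, and the groups did not overlap. The table's Creb5 row may or may not include transgene reads, since their handling was not given in the sources used here. Prrx1, which defines limb mesenchyme, was present in all 12 libraries, at 3066 to 4620 in iCreb5 and 3955 to 6260 in tdTomato. The library tdTomato 5b stood apart in its share of mitochondrial reads, 2.37%, against 0.637% to 1.34% in the other 11.

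Genes of mitosis were higher in iCreb5 cells in 4 cases, and no gene of the G1/S group passed the test. Of the 22 G2/M members, the mitotic kinases Aurka and Aurkb and the spindle proteins Ckap2l and Nusap1 rose past the threshold (Benjamini-Hochberg adjusted p under 0.05 over all genes tested), and none fell. Over all genes tested, 3.87% rose and 2.85% fell, or 6.72% together. All 22 G2/M members had a log2 difference above 0, from 0.10 for Birc5 to 0.47 for Bub1b, with a median of 0.34, whereas the median over all genes tested was 0.0038 and 50.6% of them lay above 0. Of the 21 G1/S members 0 rose and 0 fell in limma, 13 lay above 0, and the median log2 difference was 0.014. That median joins parts that went opposite ways. Of the 9 replication genes 8 lay above 0 (median 0.15), and of the 5 D cyclins and Cdk4/6 genes 4 lay below 0 (median -0.27). At an unadjusted p under 0.05 the G2/M list had 12 higher and 0 lower, and the G1/S list had 2 higher (Mcm6 and Rrm2) and 3 lower (Ccnd2, Ccnd3 and Ccne1), against 9.93% higher and 8.27% lower over all genes.

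**Figure D1:**
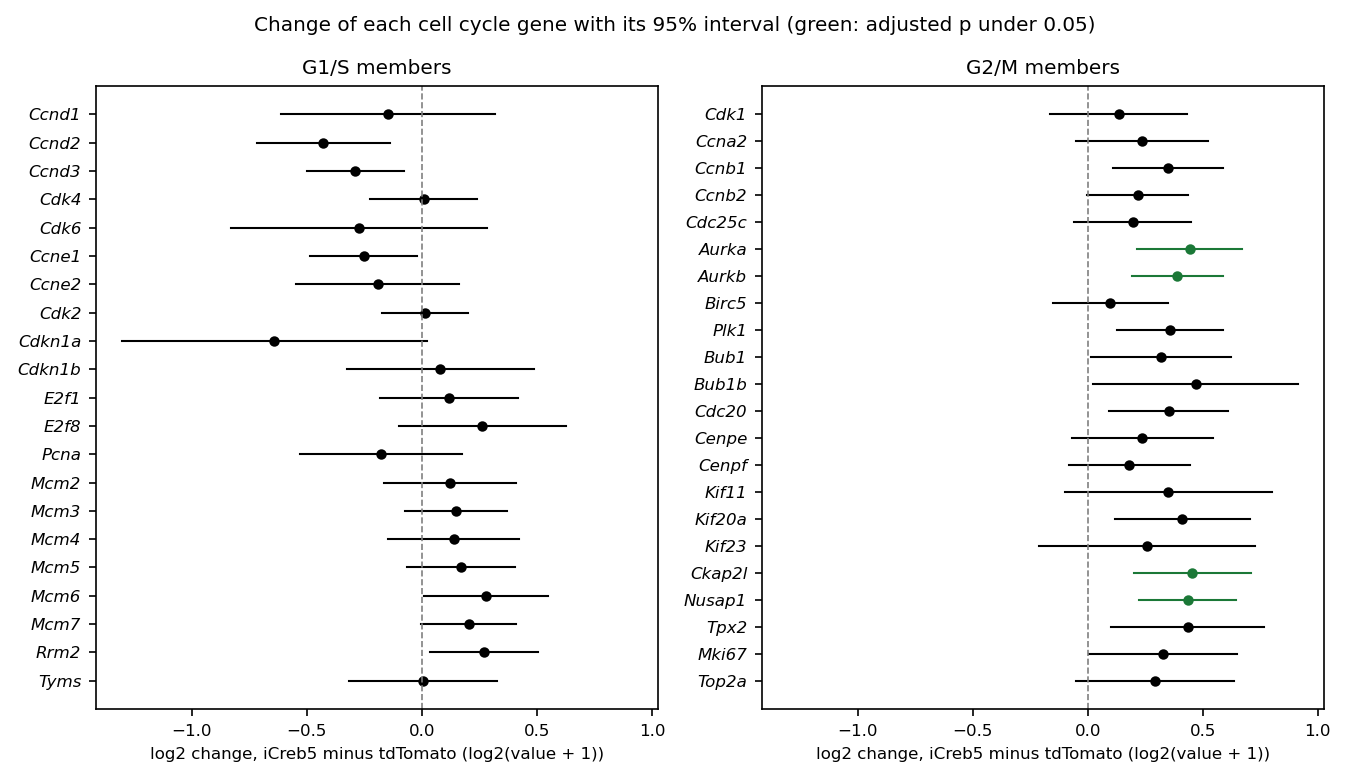
Log2 difference between iCreb5 and tdTomato for each of the 21 G1/S members (left) and 22 G2/M members (right), on the log2(normalised count + 1) scale, with points for the estimate and lines for its 95% interval. All 22 G2/M points lie right of 0 and the 4 green ones passed the threshold, whereas the G1/S points lie on both sides of 0.

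How many G2/M members passed depended on the fit and on single libraries. On the recovered reads edgeR called the same 4 G2/M members and no G1/S member, where 3.83% of all genes rose and 2.81% fell. DESeq2 called 7 G2/M members higher and Ccnd2 and Ccnd3 lower, where 5.51% of all genes rose and 4.27% fell. With litter as a block, 9 rose, adding Ccnb1, Plk1, Bub1b, Kif20a and Tpx2 to the 4, where 5.13% of all genes rose. With the 3 libraries per group of litter 3 averaged within that block, 3 rose (Aurka, Ckap2l and Nusap1), where 511 of all 16733 genes rose and 402 fell. The 5 added calls and that of Aurkb were lost, and the median log2 difference of the G2/M members was 0.29. Without the library iCreb5 3b only Nusap1 passed, where 484 of the 16733 genes rose. Without iCreb5 5, 7 G2/M members rose, where 705 of the 16733 genes did. With the libraries rescaled to equal totals 7 rose, against 4.77% of all genes (2.28% fell), and the share of all calls that were higher in iCreb5 went from 57.6% to 67.7%. The 22 of 22 above 0 held in the 25 alternative analyses except in litters 4 to 6 taken alone, where it was 20 of 22 and 0 passed in limma, the lowest adjusted p among them being 0.0679 for Aurka (1.91% of all genes rose there and 2.2% fell). In litter 3 alone Ccna2, Bub1b, Kif20a, Tpx2 and Top2a passed instead of the 4 (2.36% of all genes rose and 1.75% fell).

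Aurka (ENSMUSG00000027496, chr2:172356190-172370535) encodes aurora kinase A, which acts at the centrosome and spindle. Its normalised counts had a lowest, median and highest value of 2831, 3289 and 3876 in iCreb5, and 2095, 2382 and 2904 in tdTomato. The groups overlapped only in that iCreb5 6 lay below tdTomato 3b, and the other 5 iCreb5 libraries lay above every tdTomato library. Aurka was 1.36-fold higher in iCreb5 (log2 0.44 ± 0.11 SE, adjusted p = 0.018). The call was lost without iCreb5 3b (adjusted p = 0.0526), without tdTomato 3a and 5b (adjusted p = 0.0604), and within litter 3 or litters 4 to 6 alone.

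Aurkb (ENSMUSG00000020897, chr11:69045647-69051664) encodes aurora kinase B, the kinase of the chromosomal passenger complex that corrects attachments of chromosomes to the spindle. It ran from 3680 over a median of 4216 to 4538 in iCreb5 and from 2745 over 3201 to 3599 in tdTomato. No tdTomato library reached the lowest iCreb5 library, which was iCreb5 6. The difference was 1.31-fold (log2 0.39 ± 0.09 SE, adjusted p = 0.0175). Without iCreb5 3b the adjusted p was 0.0512, with litter as a block and litter 3 averaged it was 0.0721, and the call was also lost within litter 3 or litters 4 to 6 alone. Birc5, the survivin subunit of the same complex, gave 4360, 4421 and 6147 in iCreb5 against 3758, 4345 and 5408 in tdTomato, as lowest, median and highest. Its groups overlapped widely, with iCreb5 5 and tdTomato 5b the highest of their groups, and its log2 difference of 0.10 (95% interval -0.15 to 0.35, adjusted p = 0.738) was the smallest of the G2/M members.

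Nusap1 (ENSMUSG00000027306, chr2:119618298-119651244) encodes a protein that bundles microtubules around chromosomes in the spindle. In iCreb5 it had 4134, 4331 and 5202 as lowest, median and highest values, and in tdTomato 2769, 3457 and 3576. The groups did not overlap, iCreb5 3b being the highest and tdTomato 4a the lowest of the 12. Nusap1 was 1.35-fold higher (log2 0.43 ± 0.10 SE, adjusted p = 0.0123), and it kept its call in 23 of the 25 alternative analyses, losing it in litter 3 alone and in litters 4 to 6 alone. It overlaps Oip5 on the opposite strand by 172 bases, and the Nextera XT libraries do not mark strand. Oip5 had a mean of 685, and its reads and those of Nusap1 cannot be told apart in that stretch.

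Ckap2l (ENSMUSG00000048327, chr2:129268210-129297212) encodes a spindle pole protein of dividing cells. The lowest, median and highest values were 2730, 3553 and 3941 in iCreb5 and 1978, 2467 and 2828 in tdTomato. Here 5 of 6 iCreb5 libraries lay above every tdTomato library, and iCreb5 5 lay below tdTomato 3a and 3b. Ckap2l was 1.37-fold higher (log2 0.45 ± 0.12 SE, adjusted p = 0.0296), and this call was lost in 11 of the 25 alternative analyses, with adjusted p up to 0.0798. It was lost on leaving out iCreb5 3a, 3b, 3c or 4a, or tdTomato 3c, 4a or 6d.

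**Figure D2:**
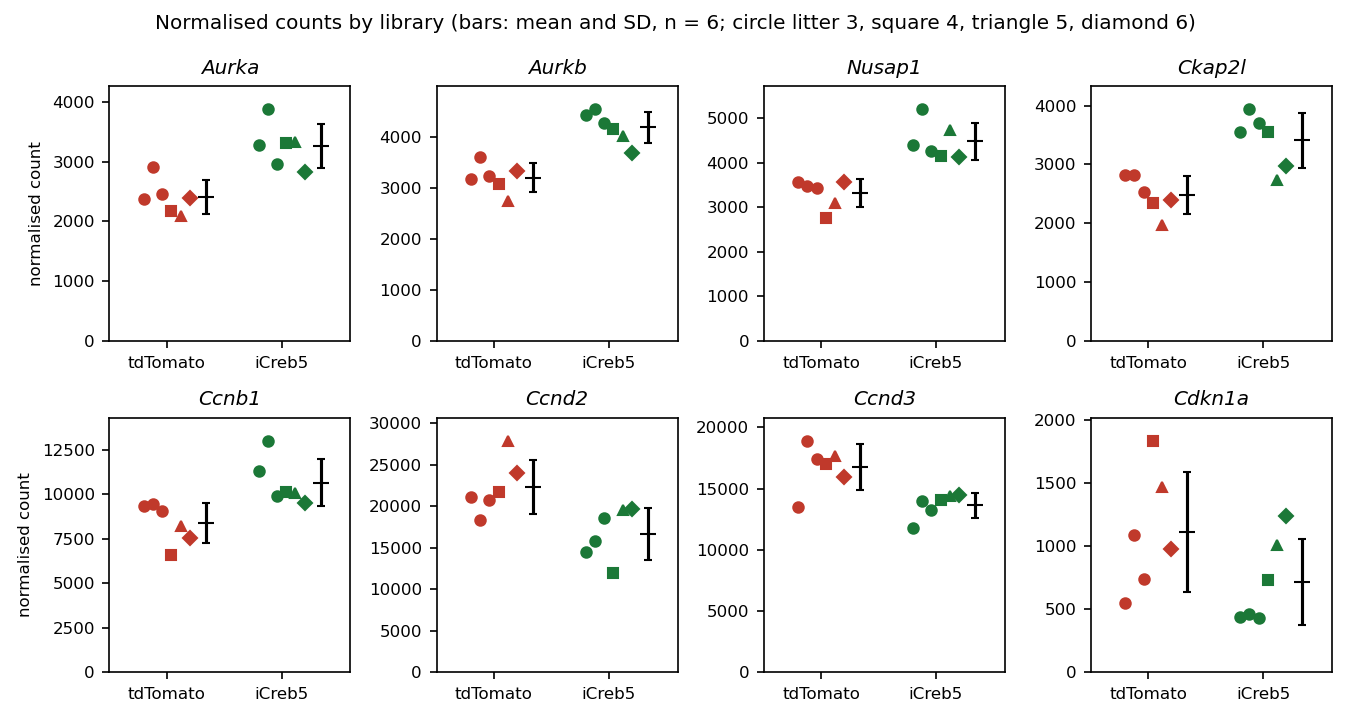
Normalised counts of 8 members in each library, tdTomato in red and iCreb5 in green, with the marker shape giving the litter and the bars the mean and SD of 6 libraries. The iCreb5 points of Aurkb, Nusap1 and Ccnb1 lie above every tdTomato point, and Ccnd2, Ccnd3 and Cdkn1a have lower iCreb5 means with overlapping points.

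The other kinases and checkpoint genes had higher means in iCreb5 and did not pass the test. Plk1, the polo kinase of mitotic entry, ran from 2912 over 3478 to 3862 in iCreb5 and from 2242 over 2657 to 3005 in tdTomato. Only iCreb5 5 and 6 fell within the tdTomato range, and the adjusted p was 0.0641 (log2 0.36 ± 0.11 SE), or 0.0386 with litter as a block and 0.139 with litter 3 averaged in it. Cdc20, which activates the anaphase-promoting complex and had the highest counts of this role, gave 4739, 6069 and 6602 in iCreb5 and 3685, 4564 and 6068 in tdTomato. The tdTomato maximum came from library 3b, which stood with the iCreb5 values, and the log2 difference was 0.35 ± 0.12 SE (adjusted p = 0.109). Without that library, named here for its Cdc20 value, the adjusted p was 0.0322, which the choice itself lowers. Bub1b, the checkpoint protein BubR1, had the largest positive difference of all members and a wide spread, with 2050, 3913 and 4602 in iCreb5 and 1562, 2540 and 2859 in tdTomato as lowest, median and highest. Its 4 libraries of litters 3 and 4 lay above every tdTomato library while iCreb5 5 and 6 did not, and the log2 difference of 0.47 ± 0.21 SE had an adjusted p of 0.242, or 0.0429 with litter as a block and 0.271 with litter 3 averaged in it. Its partner kinase Bub1 had a log2 difference of 0.32 (adjusted p = 0.244).

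Cyclin B1 was the most abundant of the genes that form or activate the mitotic Cdk1 kinase. Ccnb1 (ENSMUSG00000041431, chr13:100778650-100786570) had lowest, median and highest values of 9506, 10097 and 12997 in iCreb5 and 6603, 8648 and 9421 in tdTomato. The groups did not overlap, as was so for 3 G2/M members in all (Ccnb1, Aurkb and Nusap1) and for 2.83% of all genes with iCreb5 above. Yet the log2 difference of 0.35 ± 0.11 SE had an adjusted p of 0.0807, of 0.0225 with litter as a block, and of 0.0615 with litter 3 averaged in it. A processed pseudogene, Ccnb1-ps, was listed with a mean of 188, and how reads common to both were split is not known. Per kilobase of transcript, normalised counts were 4277 ± 520 for Ccnb1 and 2787 ± 295 for Ccnb2 in iCreb5, and 3362 ± 452 and 2399 ± 268 in tdTomato (mean ± SD, n = 6). Ccnb2 (log2 0.22, adjusted p = 0.283), Cdk1 (0.14, adjusted p = 0.689), Ccna2 (0.24, adjusted p = 0.389) and Cdc25c, the phosphatase that activates Cdk1 (0.19, adjusted p = 0.438), did not pass. Ccna2, cyclin A, which also acts in replication, was above every tdTomato library in the 4 iCreb5 libraries of litters 3 and 4, and it was lowest of all 12 in iCreb5 5.

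Among the other spindle and kinetochore genes none passed. Kif20a, a kinesin of cytokinesis and the one with the highest counts, ran from 3487 over 5032 to 5465 in iCreb5 and from 2705 over 3591 to 3813 in tdTomato. Again the 4 libraries of litters 3 and 4 were above all tdTomato libraries and iCreb5 5 and 6 were within their range (log2 0.41 ± 0.14 SE, adjusted p = 0.0963, or 0.0194 with litter as a block and 0.164 with litter 3 averaged in it). Kif20a shares 977 bases with Cdc23 on the opposite strand, which had a mean of 8195, so its reads and those of Cdc23 cannot be told apart there. Tpx2, which activates aurora A on the spindle, had a log2 difference of 0.43 ± 0.16 SE (adjusted p = 0.13, or 0.0183 with the block and 0.143 with litter 3 averaged in it). The kinesins Kif11 (0.35, adjusted p = 0.424) and Kif23 (0.26, adjusted p = 0.609) and the kinetochore genes Cenpe (0.24, adjusted p = 0.426) and Cenpf (0.18, adjusted p = 0.501) did not pass.

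Mki67, the proliferation marker Ki-67 that coats mitotic chromosomes, and Top2a, the topoisomerase that untangles sister chromatids, had higher means in iCreb5 and did not pass. Top2a had 5422, 6536 and 10272 as lowest, median and highest in iCreb5 and 4655, 5970.5 and 6174 in tdTomato. Its 3 iCreb5 libraries of litter 3, at 7458 to 10272, stood above every other library of either group, and iCreb5 4a, 5 and 6 were each below the tdTomato library of their litter. Over all libraries the log2 difference was 0.29 ± 0.16 SE (adjusted p = 0.369). Mki67 had a log2 difference of 0.33 ± 0.15 SE (adjusted p = 0.262).

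**Figure D3:**
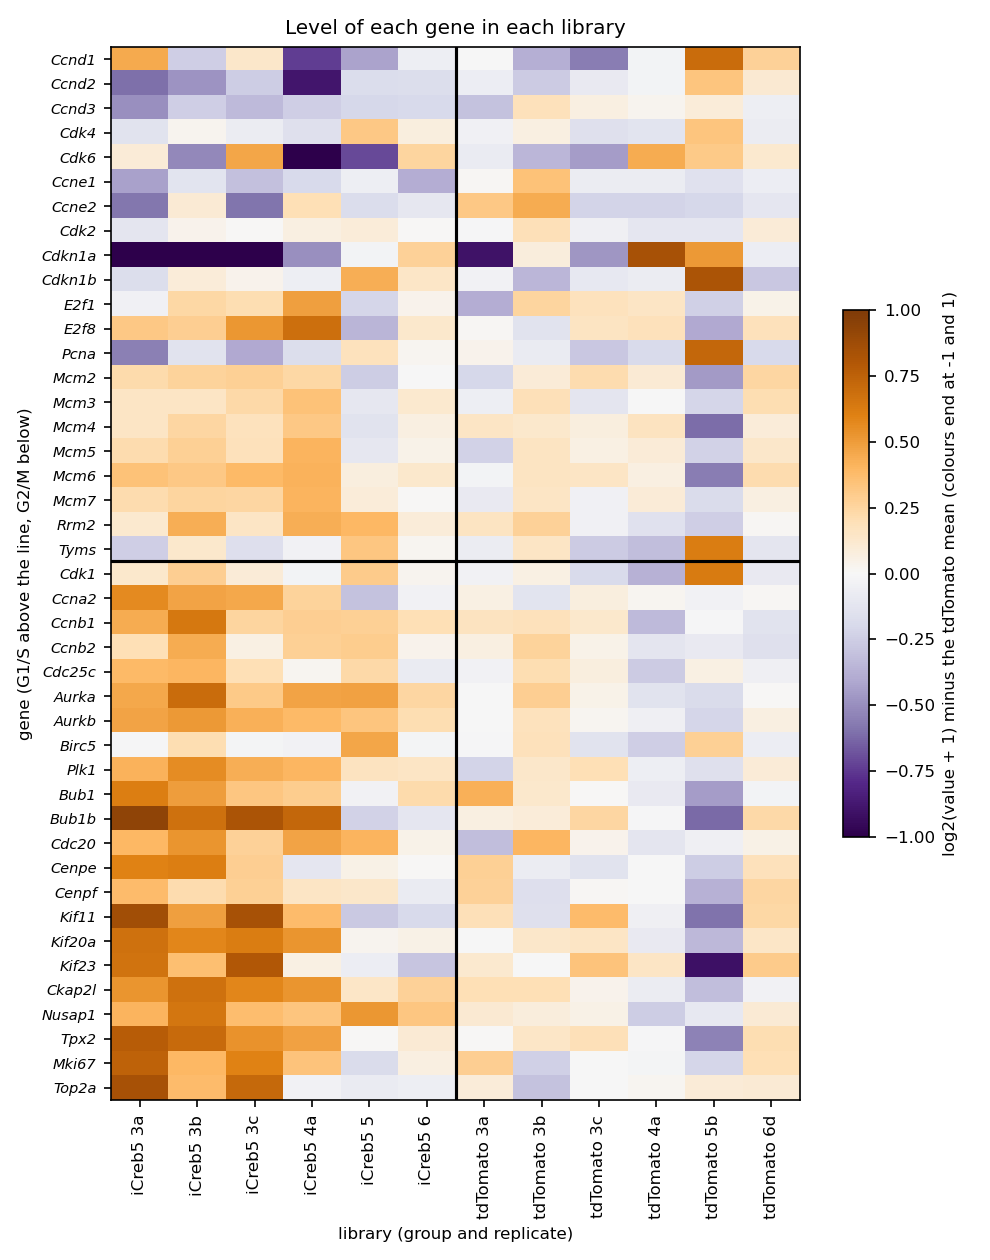
Log2(normalised count + 1) of the 43 members (rows) in the 12 libraries (columns) minus the gene's tdTomato mean, from purple (lower) to orange (higher). Below the horizontal line, most G2/M rows are orange in iCreb5 3a, 3b, 3c and 4a and paler in iCreb5 5 and 6. Above it the G1/S rows go both ways, with 8 of 9 replication genes higher on average in iCreb5 and 4 of 5 D cyclins and Cdk4/6 genes lower.

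The difference in G2/M members varied between litters. In litter 3, 22 of 22 were higher in iCreb5 (median log2 difference 0.42), in litter 4, 19 of 22 (0.41), in litter 5, 19 of 22 (0.38), and in litter 6, 10 of 22 (-0.02). Over all genes tested the share higher was 52.5%, 49.5%, 46% and 51.4% in the same litters. The 9 that were higher in all 4 litters were Ccnb1, Ccnb2, Aurka, Aurkb, Birc5, Plk1, Bub1, Ckap2l and Nusap1, or 40.9% of the list, against 13.4% of all genes. Litters 4, 5 and 6 give 1 library against 1, with no replicate check. The difference between litters 4 to 6 and litter 3 was tested as an interaction, and 0 of the 43 members and 0 of all 16733 genes passed in limma. At an unadjusted p under 0.05, 5 members and 8.96% of all genes did, and the smallest p among the members was 0.00124 for Top2a (adjusted p = 0.501).

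The mean deviation of the 22 G2/M members from their 12-library mean, on the log2 scale, put these libraries in order. It was 0.36 in iCreb5 3a, 0.34 in 3b, 0.26 in 3c, 0.12 in 4a, -0.04 in 5 and -0.11 in 6. In tdTomato it was -0.08 in 3a, -0.09 in 3b, -0.09 in 3c, -0.25 in 4a, -0.36 in 5b and -0.08 in 6d. The 3 libraries of litter 3 were the highest of the iCreb5 group, 5 of 6 iCreb5 libraries lay above every tdTomato library, and iCreb5 6 lay below 4 tdTomato libraries. Group means were 0.16 ± 0.20 and -0.16 ± 0.12 (SD, n = 6), and for the 21 G1/S members -0.01 ± 0.05 and 0.01 ± 0.07. Within the G1/S list, the replication genes had 0.06 ± 0.09 in iCreb5 and -0.06 ± 0.09 in tdTomato. The D cyclins and Cdk4/6 genes had -0.11 ± 0.24 and 0.11 ± 0.21. Leaving out libraries that are low in these values raises or lowers the counts by the choice itself, so the next values are descriptions. Without iCreb5 5 and 6, the lowest of their group, 11 G2/M members rose, where 3.86% of all genes did, and the median log2 difference was 0.45. Without tdTomato 3a, the shallowest library, and 5b, the lowest of its group, Aurkb and Nusap1 rose, against 3.32% of all genes, and Ccnd3 fell, as did 2.55% of all genes.

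**Figure D4:**
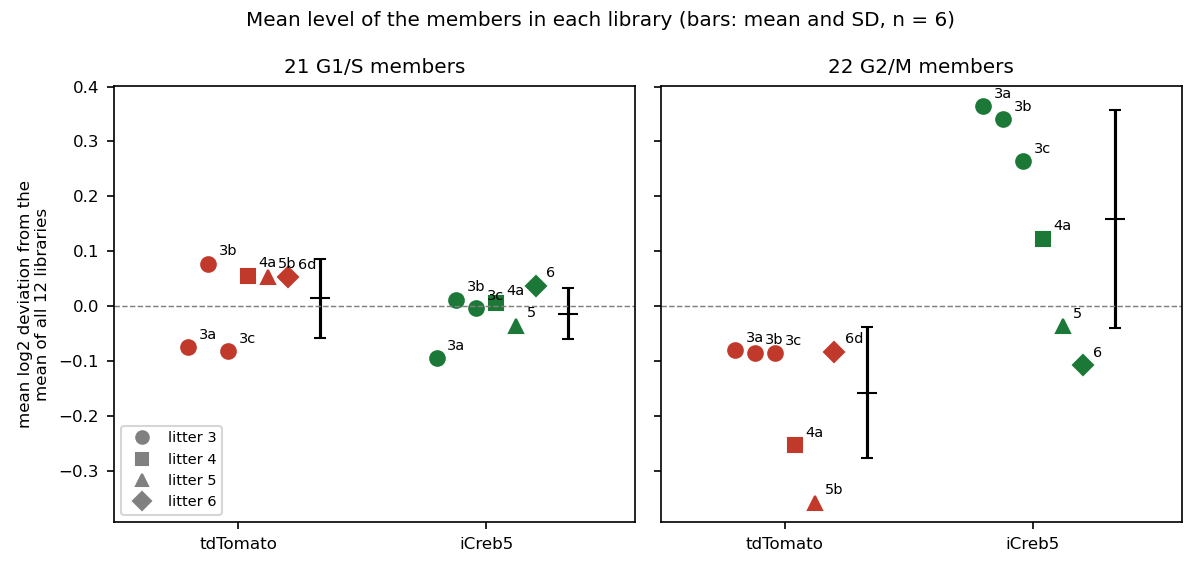
Mean log2 deviation of the 21 G1/S members (left) and the 22 G2/M members (right) in each library from the mean of all 12 libraries, with marker shapes for litters, replicate names beside the points, and bars for the mean and SD of 6 libraries. The G2/M points of iCreb5 3a, 3b, 3c, 4a and 5 lie above all tdTomato points, while iCreb5 6 lies among them, and the G1/S points of both groups lie near 0.

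The libraries also differed in how transcript length went with a gene's level. Spearman's rho across genes between transcript length and a gene's deviation was lowest in iCreb5 5 (-0.44), tdTomato 5b (-0.38) and tdTomato 3b (-0.32), and highest in iCreb5 3a (0.39) and 3c (0.37), so long transcripts were relatively low in both litter 5 libraries. By library, rho was 0.39, -0.04, 0.37, 0.07, -0.44 and -0.13 in iCreb5 3a, 3b, 3c, 4a, 5 and 6. In tdTomato 3a, 3b, 3c, 4a, 5b and 6d it was 0.13, -0.32, 0.17, 0.22, -0.38 and 0.22. The mean deviation of the 11 longer G2/M transcripts ran from -0.19 to 0.50 in iCreb5 and from -0.48 to 0.003 in tdTomato. For the 11 shorter ones it ran from -0.04 to 0.37 and from -0.31 to 0.02. Among the 11 longer G2/M transcripts none passed (median log2 difference 0.32), and among the 11 shorter ones 4 did (median 0.35). Mean rho was 0.04 in iCreb5 and 0.01 in tdTomato, and its part in the values of single libraries was not tested.

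Markers of other cells also differed between the groups. Of 16 leukocyte markers 15 rose, with a median log2 difference of 2.52, and their summed normalised count was 3118 to 14234 in iCreb5 and 909 to 1546 in tdTomato. By library the iCreb5 sums were 8069 in 3a, 4591 in 3b, 6059 in 3c, 3118 in 4a, 8626 in 5 and 14234 in 6. Of 16 chondrocyte markers 15 fell, with a median of -1.52, and their sum was 122671 to 163887 in iCreb5 and 239468 to 498378 in tdTomato. Of 8 endothelial markers 5 rose, with sums of 1434 to 4041 and 1139 to 1629. Of 7 osteoblast markers tested 5 fell, with a median of -1.19, and the sums of all 8 overlapped, at 98373 to 244735 and 80418 to 329233. Col1a1 made up most of these sums (mean 171807 in iCreb5 and 182508 in tdTomato) and did not pass. In 3 of the 7, Runx2, Sp7 and Dmp1, every tdTomato library lay above every iCreb5 library. Of 5 neuronal genes tested 1 rose and 1 fell, with log2 differences from -1.65 to 2.65 and a median of 0.08. The sums of all 6 neuronal genes were 4788 to 7931 in iCreb5 and 1087 to 1688 in tdTomato. These sums do not stand for each of the genes. None of 6 red cell genes tested passed, but their sums were 30711 in iCreb5 5, 27473 in iCreb5 6, 40233 in tdTomato 5b and 23694 in tdTomato 6d, 9042 and 13620 in the iCreb5 and tdTomato libraries of litter 4, and 2341 to 8222 in litter 3. No marker of these lists was at 0 in all libraries. In bulk samples fewer cells of a type and less RNA per cell cannot be told apart, and the part of these cells in the cell cycle values was not tested.

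Among the genes that open the cell cycle, the D-type cyclins had lower means in iCreb5, and none passed. Ccnd2 (ENSMUSG00000000184, chr6:127125162-127152193) ran from 11951 over 17203 to 19634 in iCreb5 and from 18382 over 21387 to 27873 in tdTomato. The highest iCreb5 libraries, 5, 6 and 3c, lay above the lowest tdTomato library, 3b, and in each litter iCreb5 was lower. The log2 difference was -0.43 ± 0.14 SE (adjusted p = 0.0777). It passed with litter as a block (adjusted p = 0.0162, or 0.0425 with litter 3 averaged in it), where 4.35% of all genes fell. Without iCreb5 5, among the highest of its group in Ccnd2, the adjusted p was 0.0494, which the choice itself lowers. Ccnd3 gave 11785, 14027 and 14459 in iCreb5 and 13477, 17203 and 18911 in tdTomato as lowest, median and highest. Only tdTomato 3a lay within the iCreb5 range, and the log2 difference was -0.29 ± 0.10 SE (adjusted p = 0.105). Without that library, named here for its Ccnd3 value, the adjusted p was 0.0356, which the choice itself lowers. Ccnd2 and Ccnd3 were the 2 G1/S members lower in iCreb5 in all 4 litters, as were 12.4% of all genes. No G1/S member had all tdTomato libraries above all iCreb5 libraries, as 1.92% of all genes did. Ccnd1 did not pass either (-0.15 ± 0.22 SE, adjusted p = 0.793), with iCreb5 higher in litter 3 and lower in litters 4, 5 and 6.

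Per kilobase of transcript, the D cyclins stood in the order Ccnd3, Ccnd2, Ccnd1, with normalised counts of 6464 ± 482, 2635 ± 491 and 254 ± 74 in iCreb5 and 7920 ± 882, 3520 ± 517 and 282 ± 92.1 in tdTomato (mean ± SD, n = 6). Their spreads did not reach each other in either group. The partner kinases differed more, with Cdk4 at 10138 ± 1288 and Cdk6 at 36.3 ± 15.1 per kilobase in iCreb5, and 10089 ± 1337 and 41.6 ± 10.1 in tdTomato. Cdk4 differed between the groups by less than its spread, running from 18483 over 20220 to 25586 normalised counts in iCreb5 and from 18463 over 19780 to 25859 in tdTomato. Both litter 5 libraries were the highest of their group, and the log2 difference was 0.01 (95% interval -0.23 to 0.24). Cdk6 had -0.27 ± 0.26 SE (adjusted p = 0.661). Reads of Cdk4 and Tspan31, which overlap by 641 bases on opposite strands, and of Ccnd3 and Bysl, by 361 bases, cannot be told apart in those stretches.

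The E cyclins and Cdk2, which act next, did not pass. Cdk2 gave 4069, 4486 and 4716 in iCreb5 and 4077, 4320 and 5058 in tdTomato as lowest, median and highest. The ranges nearly coincided, and the interval of its log2 difference was -0.17 to 0.20. Ccne1 had a log2 difference of -0.25 ± 0.11 SE (adjusted p = 0.225) and Ccne2 of -0.19 ± 0.17 SE (adjusted p = 0.618). In Ccne1, 4 of 6 iCreb5 libraries lay below every tdTomato library.

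Cdkn1a, the inhibitor that p53 induces, had the largest difference of any member, toward lower values in iCreb5, with an interval that included 0. Its lowest, median and highest values were 431, 596 and 1239 in iCreb5 and 547, 1035 and 1836 in tdTomato. The 3 iCreb5 libraries of litter 3 lay below every tdTomato library, while iCreb5 6 was higher than the tdTomato library of its litter. The log2 difference was -0.64 ± 0.31 SE (95% interval -1.31 to 0.02, adjusted p = 0.293). Without iCreb5 5 and 6 the difference was -1.02 (adjusted p = 0.0465), where 2.98% of all genes fell. These libraries were the highest of their group in Cdkn1a, so leaving them out widens the difference by the choice itself. Cdkn1b, the related inhibitor of Cdk2 complexes, had 0.08 ± 0.19 SE (adjusted p = 0.884).

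E2f1, an activating E2F factor, ran from 1285 over 1624 to 2088 in iCreb5 and from 1136 over 1598 to 1774 in tdTomato. Its ranges overlapped, with iCreb5 4a alone above the tdTomato values (log2 0.12 ± 0.14 SE, adjusted p = 0.734). E2f8, a repressive E2F factor, had 0.26 ± 0.17 SE (adjusted p = 0.467).

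No replication gene passed. Rrm2, the small subunit of ribonucleotide reductase and the member of this role with the highest counts, gave 8629, 9828 and 10974 in iCreb5 and 6823, 8001 and 9778 in tdTomato as lowest, median and highest. The ranges overlapped, with iCreb5 3b, 4a and 5 above every tdTomato library. Its log2 difference was 0.27 ± 0.11 SE (adjusted p = 0.189), and it was the only G1/S member higher in iCreb5 in all 4 litters. The 6 subunits of the MCM helicase, Mcm2 to Mcm7, all had a log2 difference above 0, from 0.12 for Mcm2 to 0.28 for Mcm6, and none passed. Mcm6, with the largest difference of the G1/S members above 0, gave 7906, 9458 and 10022 in iCreb5 and 5106, 8095 and 8704 in tdTomato as lowest, median and highest. The 4 iCreb5 libraries of litters 3 and 4 lay above every tdTomato library and tdTomato 5b lay far below the rest (log2 0.28 ± 0.13 SE, adjusted p = 0.258). Tyms, thymidylate synthase, had 0.01 ± 0.15 SE (adjusted p = 0.993), and Pcna, the polymerase clamp, had -0.18 ± 0.17 SE (adjusted p = 0.649). Pcna-ps2, a pseudogene of Pcna, was listed with a mean of 218.

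A wider list of 99 other cell cycle genes, of which 98 were tested, gave 6 that rose and 1 that fell (6.12% and 1.02%, against 3.87% and 2.85% of all genes). Of its 40 genes for mitotic entry, checkpoint, kinetochore, cytokinesis and condensin, 4 rose, none fell, and 37 had a log2 difference above 0 (92.5%), with a median of 0.28. Those 4 were Cdca8 (1.30-fold, adjusted p = 0.0418), a further subunit of the aurora B complex, Fzr1 (1.41-fold, adjusted p = 0.0309), an activator of the anaphase-promoting complex, the kinesin Kif22 (1.37-fold, adjusted p = 0.0254) and the condensin subunit Ncaph (1.49-fold, adjusted p = 0.0324). Their calls were lost in 17, 11, 10 and 10 of the 25 alternative analyses, in the same order. Ncaph ran from 2438 over 3086 to 3373 in iCreb5 and from 1237 over 2042 to 2452 in tdTomato. Only iCreb5 5 lay below the highest tdTomato library, 3b.

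Of the 47 tested genes for Rb and E2F factors, other Cdk inhibitors, origin licensing and DNA synthesis, 1 rose, Tfdp2 (1.30-fold, adjusted p = 0.0381), a partner protein of E2F factors, and none fell. Of these 47, 35 had a log2 difference above 0 (74.5%), with a median of 0.09. In Tfdp2 the groups did not overlap, and its call was lost in 14 of the 25 alternative analyses. Among the Myc genes, Mycl was 1.49-fold higher in iCreb5 (adjusted p = 0.0199) and Max, the partner of Myc proteins, was 2.16-fold higher in tdTomato (adjusted p = 0.0262), at 202, 322 and 599 in iCreb5 and 466, 675 and 1315 in tdTomato as lowest, median and highest. Their calls were lost in 4 and 8 of the 25 alternative analyses. None of the 7 genes for p53 and quiescence passed. The 2 most abundant genes of the wider list that did not pass were Cdkn1c and Slbp. Cdkn1c, an imprinted Cdk inhibitor, had a mean ± SD of 75392 ± 13914 over the iCreb5 libraries and of 101009 ± 16510 over the tdTomato libraries. Its log2 difference was -0.43 ± 0.14 SE (adjusted p = 0.0824, or 0.0367 with litter as a block). That block counts the 3 libraries per group of litter 3 singly, and the Cdkn1c value with litter 3 averaged is not given here. Slbp, which binds histone mRNA, had 0.03 ± 0.15 SE (adjusted p = 0.956).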

How the data were processed

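RNA from sorted cells was made into Nextera XT libraries, per the labels' protocols. The authors deposited a signal table of gene counts divided by a size factor per library, judged from the deposited values, since all libraries' values were whole multiples of 1 unit (100% whole within a tolerance of 1e-06). The submitters' processing notes name FastQC, STAR, Salmon, DESeq2 and mm10, with no versions and no roles. Strand use was not given in the sources used here. Of another deposited table, none of whose 8 columns could be tied to a sample label, nothing was used. The 43 members and all gene lists were chosen with earlier results of these data known.

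Testing used limma 3.58.1 under R 4.3.3, by two-sided moderated fits with an intensity trend and no covariate, on log2(value + 1). It covered the 16733 genes that reached 10 in 6 or more of 12 libraries, with Benjamini-Hochberg adjustment over all of them. Folds are 2 to the power of that log2 difference. On the recovered reads, edgeR 4.0.16 (quasi-likelihood) called 641 higher and 471 lower, and DESeq2 1.42.0 called 922 and 715. Transcript lengths and overlaps came from GENCODE annotation of GRCm38, and promoters from RefSeq. The lengths are of 1 transcript per gene. Spread between libraries is the only error measured: single embryos and pools could not be distinguished from the labels.

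Litter labels pair the groups: same-numbered libraries share a litter and batch label, and nothing ties the letters a, b and c across groups. The correlation of deviations from the group means between an iCreb5 and a tdTomato library ran from -0.242 (3a and 3b) to 0.213 (3a and 3c) over the 9 pairs of litter 3, and was 0.154 in litter 4, 0.346 in litter 5 and 0.000309 in litter 6. Over pairs of different litters it ran from -0.259 (3a and 5b) to 0.22 (3a and 6d). The block rests on the labels, not on these values. The design text speaks of 6 litters and the labels of 4.

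Full values are given for members past the threshold, for the highest and the lowest log2 difference in each phase list and for the most abundant member of each role. Of the wider list, up to 2 genes per sublist past the threshold and the 2 most abundant not past it are named. Plk1, Ccnd2, Ccnd3 and other members given in detail were added after their values were seen.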

Additional observations from a re-analysis of the deposited data

Results flagged for a closer look

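In 100 comparisons of 1 library with the 5 others of its group (50 genes in 2 groups), 11 values stood far from the rest. The measure was Dixon's ratio at the 95% level, where chance gives about 1 in 20, or 5, in independent comparisons. These comparisons shared the same 12 libraries, so 11 against 5 is no measure of an excess. All 11 values came from the libraries tdTomato 5b and 3b. Library tdTomato 5b was far above the other 5 in Cdkn1b (469, others 208 to 257), Pcna (10003, others 4998 to 6220) and Cdk1 (7537, others 3780 to 5067). It was far below them in Mcm4 (3695, others 5966 to 6357), Mcm6 (5106, others 7385 to 8704), Bub1b (1562, others 2382 to 2859), Kif23 (1010, others 1888 to 2394) and Tpx2 (2098, others 3031 to 3535). This is the library with the highest mitochondrial share, and the part of that in these values was not tested. Library tdTomato 3b was far above the others in Ccne1 (2946, others 2092 to 2334) and Cdca8 (3397, others 2314 to 2707) and far below them in Top2a (4655, others 5727 to 6174).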

How the results depend on the processing

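Of the 43 members, 31 kept the sign of their difference in all 25 alternative analyses, and 12 changed it in some analysis without passing the threshold there or in the analysis reported. With the replicate block (litter), 9 G2/M members rose, 1 G1/S member fell, 728 of all genes fell, and no other call of a member changed. Averaging litter 3 within the block left 3 G2/M members higher, with a median of 0.29, and 1 G1/S member lower, where 511 of all genes rose and 402 fell. Litter 3 alone gave 395 genes higher and 292 lower and a G1/S median of 0.11, and litters 4 to 6 alone with the block gave 320 genes higher and 0 G2/M members. Equal totals gave 7 G2/M members higher, and DESeq2 gave 7 with 2 G1/S members lower. Without tdTomato 3a and 5b, 2 G2/M members rose and 1 G1/S member fell, and without iCreb5 5 and 6 it was 11 and 2. Leaving out 1 library at a time gave 1 to 7 G2/M members higher, 0 to 1 G1/S members lower, a G2/M median of 0.25 to 0.38, a G1/S median of -0.01 to 0.05, 484 to 705 genes higher and 369 to 511 lower. The cause of these changes was not tested, and subsets with fewer libraries have less power by construction. Depth limited no member, as each lay far above the value of 3 reads in every library (at most 8.38 units).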
